A study of Mus musculus with 2 samples.

Results

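Perineurial-like cells of the dorsal root ganglion (DRG) were selected on the UMI counts of named genes in single cell RNA-seq data, so the levels of those genes are no finding. They were barcodes with more than 300 detected genes, at least 2000 UMIs (unique molecular identifiers, each counting 1 captured RNA molecule) and at most 22% of UMIs from mitochondrial (mt-) genes. Each also had to hold at least 5 UMIs of *Igfbp6* and at least 3 UMIs in all of *Slc2a1*, *Itgb4*, *Cldn1*, *Perp* and *Lypd2*, with at least 2 of these 5 genes detected. Barcodes with 30 or more UMIs of *Fabp7* per 10000, or with more than 1 UMI of *Ncmap*, *Scn7a*, *Rgs5*, *C1qa* or *Flt1*, were set aside, since these genes mark the glia, mural cells, macrophages and endothelial cells of the ganglion. The rule held 298 of the 16346 barcodes that met the quality terms. There were 108 of 8162 in replicate 1, which is 1.32% (exact binomial 95% interval 1.09 to 1.60%), and 190 of 8184 in replicate 2, which is 2.32% (2.01 to 2.67%). The intervals do not overlap, and they cover counting error only.

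The samples were 2 droplet libraries of live sorted cells from L4 and L5 DRGs of naive C57BL/6 females aged 3 months, with no injury, drug or engineered allele. The study describes the libraries as biological replicates, but how many animals went into each was not given, and p-values measure the spread between these libraries alone. There was 1 condition, so the comparisons here are between cell types within the same libraries. They held 119101743 and 128668771 UMIs.

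The perineurium is the layered sheath of flattened cells that wraps each nerve fascicle and continues over the capsule of the ganglion. Its cells are joined by tight junctions, lie between basement membranes that they bind through laminin receptors, and carry glucose and other solutes across the sheath, so that together with the endoneurial vessels they form the blood-nerve barrier. During nerve development Schwann cells send the signal Desert hedgehog, which the perineurial cells receive through Patched.

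The depth of the members lay near that of the fibroblasts and below that of endothelial cells. Their median was 13133 UMIs in replicate 1 and 12618 in replicate 2, with 4222 and 4083.5 genes detected, and single cells ran from 4192 to 42136 UMIs in replicate 1 and from 2060 to 48381 in replicate 2. No barcode sequence was shared by members of both libraries. The 3 kinds of cells used for comparison were gated on UMIs in the same way. Fibroblasts with *Smoc2*, *Ccl11* and *Gpc3* (Ccl11 fibroblasts) numbered 73 and 70, at medians of 11133 and 10850.5 UMIs. Fibroblasts with *Igf2*, *Slc4a10* and *Sfrp4* (Igf2 fibroblasts) numbered 37 and 38, at 13693 and 15869 UMIs. Endothelial cells, which form the other barrier of the nerve, numbered 153 and 167, at 15793 and 17686 UMIs. Levels are counts-per-million values (CPM), the UMIs of a gene as a share of all UMIs of a cell type in a library, and where 2 values are given the first is replicate 1. The median mitochondrial share of the members was 8.02 and 6.81%, against 4.44 and 4.14% in Ccl11 fibroblasts, 6.68 and 7.06% in Igf2 fibroblasts and 2.55 and 2.37% in endothelial cells.

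The threshold on *Igfbp6* cut through few cells and the threshold on the 5 other genes cut through many. At 5 or 6 UMIs of *Igfbp6* lay 5 and 6 members, and 2 and 8 barcodes met every other term with 3 or 4 UMIs. At 3 or 4 UMIs of the 5 genes summed lay 16 and 34 members, while 77 and 109 barcodes met the terms on *Igfbp6* and on other cell types with 1 or 2. The cap on *Scn7a*, a gene of non-myelinating Schwann cells, removed the most barcodes of the 5 single-gene caps, 15 and 29. RNA from empty droplets was estimated at 1.18 and 1.92% of the members' UMIs. No doublet caller was run, and the caps alone stood against droplets with more than 1 cell.

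The genes that chose the members are given as a description, without tests. *Igfbp6*, a secreted protein that binds insulin-like growth factor 2, stood at 5823 and 4533 CPM, against 984 and 873 in Ccl11 fibroblasts and 3099 and 3324 in Igf2 fibroblasts. Its gene lies at chr15:102144362-102149511 (GRCm38, plus strand). *Itgb4*, the integrin beta 4 chain of the laminin receptor, was at 317 and 337, and the next highest type was the non-myelinating Schwann cells at 229 and 262. *Slc2a1*, the glucose transporter GLUT1, was at 195 and 211 and was higher in endothelial cells, at 526 and 673. *Cldn1*, a claudin of tight junction strands, stood at 325 and 279, with 33.2 and 19.3 in Ccl11 fibroblasts. *Perp*, a membrane protein of desmosomes, was at 107 and 94.1, with 52 and 57.1 in mural cells. *Lypd2* was at 331 and 289 and at most 5.96 in any profile of the other types named here. The fibroblast gates capped the summed UMIs of *Slc2a1*, *Itgb4*, *Cldn1*, *Perp* and *Lypd2*. Low levels of these genes in fibroblasts were therefore set by the gates and are no finding. Outside the fibroblasts, the glucose transporter and the integrin were each shared with another type, while *Lypd2* was near absent.

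Of the 16730 genes tested, 105 (0.628%) were higher in the perineurial-like cells than in each of the 8 other gated types (edgeR's quasi-likelihood test, adjusted p under 0.05 in each of the 8 comparisons). Genes of any gate were left out of the tests. The 15 genes with the highest ratio to the next type were *Stra6*, *Cldn11*, *Thbs4*, *Kcnj13*, *Cxadr*, *Krt19*, *Bmp3*, *Klf5*, *Ptgds*, *Dleu7*, *Spink1*, *E330011O21Rik*, *Plcb3*, *Ass1* and *Snhg11*, and all 15 were among the 105. *Krt19*, *Bmp3*, *Spink1*, *E330011O21Rik* and *Dleu7* met the filter on low counts only through the members' own profiles, so they had to differ, and their calls are no support, here or in the counts of gene lists that hold them. *Stra6* (chr9:58063788-58153996, plus strand), the membrane receptor that takes up retinol from its binding protein, stood at 211 CPM in both replicates, with 9.84 and 9.01 in Ccl11 fibroblasts and 3.93 and 3.43 in Igf2 fibroblasts. The log2 fold change against Ccl11 fibroblasts was 4.37 (SE 0.46, n = 2 samples per type, edgeR's quasi-likelihood adjusted p = 1.76e-06). Of all *Stra6* UMIs in barcodes that met the quality terms, the members held 87.3 and 78.6%, so that these few cells carried most of this transcript. *Cldn11* (chr3:31149920-31164324, plus strand), a claudin, was at 289.6 and 337, against 11.1 and 34.8 in Ccl11 fibroblasts and 9.83 and 49.8 in Igf2 fibroblasts. *Thbs4* (chr13:92751590-92794818, minus strand), a matrix thrombospondin, was at 259 and 239, against 34.4 and 12.9 in Ccl11 fibroblasts. With DESeq2 the difference from Ccl11 fibroblasts did not pass. Igf2 fibroblasts held none of its UMIs, which put the members at least 89.8-fold higher when 3 UMIs over both samples were taken as the floor.

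*Krt19* (chr11:100140810-100148665, minus strand), a keratin of simple epithelia, was at 83.8 and 57.9 in the members. Empty droplets held it at 45 and 77.2 CPM, above the members in replicate 2, and held *Spink1*, a secreted trypsin inhibitor, at 64.1 and 96.9 against 34.5 and 39.9 in the members. SGCs of the same libraries held *Krt19* at 0.0487 and 0.115 CPM and *Spink1* at 0.0487 and 0. The part of empty-droplet RNA in the members' levels of these genes was not tested. Ccl11 fibroblasts held 1 UMI of *Krt19*, a ratio of 108 with an exact counting interval of 19.2 to 4268. *Bmp3* (chr5:98854415-98884396, plus strand), which antagonises other bone morphogenetic proteins, was at 70.2 and 54.9 and had no UMI in Ccl11 fibroblasts or endothelial cells, so that it was at least 32.2-fold and at least 125-fold higher in the members. *Kcnj13*, an inward rectifier potassium channel, was at 70.8 and 73, with 2 UMIs in Ccl11 fibroblasts (ratio 57.4, counting interval 15.7 to 476). *Klf5*, a Krüppel-like transcription factor, was at 283 and 316, against 50.4 and 37.3 and against 57 and 20.6 in the fibroblasts. Apart from *Klf5*, which both kinds of fibroblast carried at a lower level, these genes were near absent from the 3 comparison types. *Cxadr*, an adhesion receptor of tight junctions, stood at 116 and 152. The non-coding gene *E330011O21Rik*, on the opposite strand, overlaps the start of *Cxadr* on chromosome 16 (78250861 to 78302487 against 78301489 to 78359774), and was at 29.6 and 39.5. It had no UMI in either kind of fibroblast, at least 18.9-fold and at least 13-fold higher in the members.

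**Figure D1:**
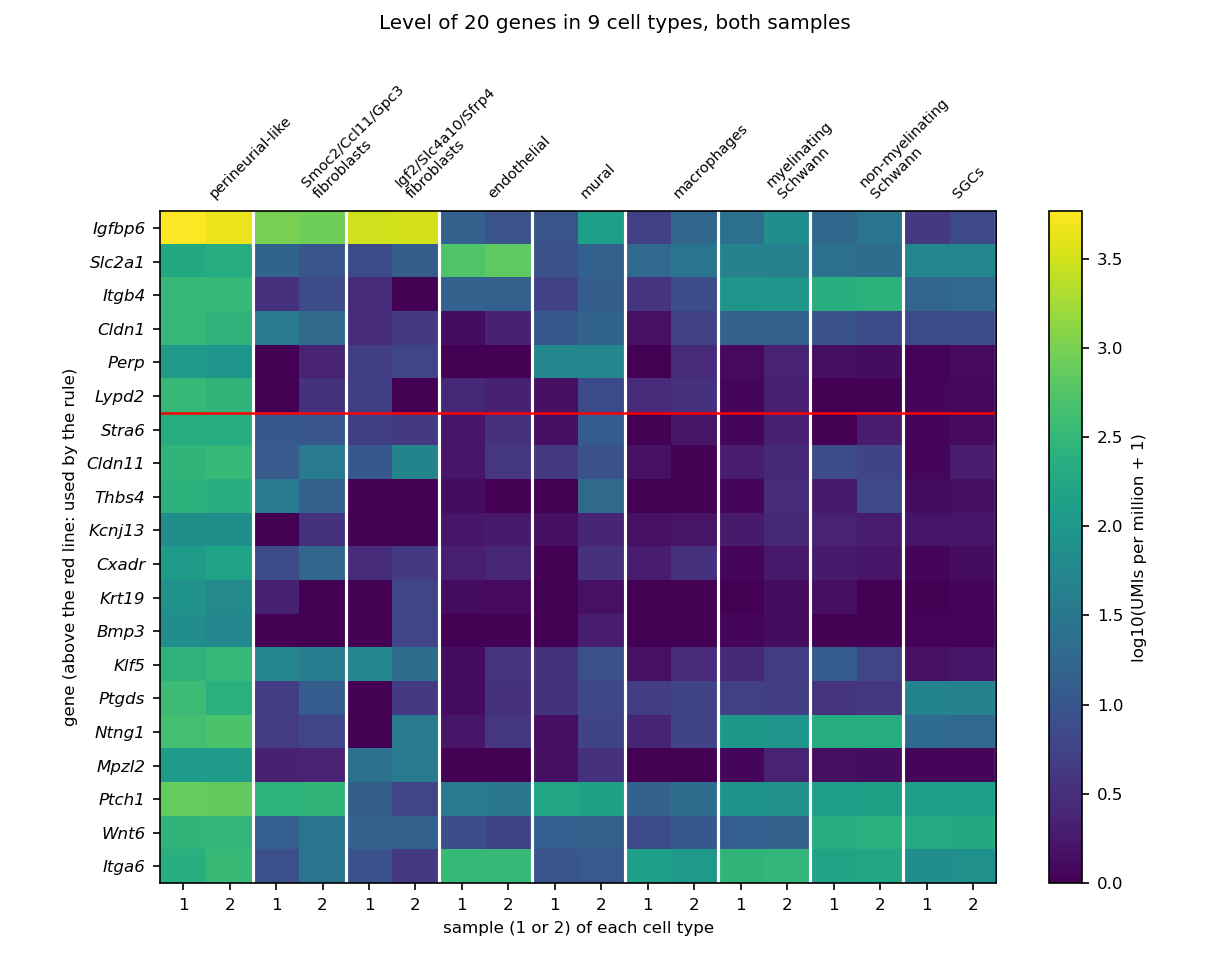
Levels of 20 genes (rows, log10 of CPM + 1 by colour) in both samples of 9 gated cell types (columns), with the genes of the rule above the red line. The perineurial-like cells hold the brightest columns for the genes from Stra6 to Mpzl2, while Slc2a1 is brighter in endothelial cells and Itga6 is about as bright in endothelial and myelinating Schwann cells.

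Shares of cells with a UMI depend on depth, so each cell was thinned to 2000 UMIs. *Stra6* was then found in 25 and 31.6% of the members, against 0.0421 and 0.0829% of satellite glial cells (SGCs), the glia around each neuronal soma, which should lack it. The SGCs were the deeper cells, at medians of 16551 and 17343 UMIs. Without thinning the shares were 58.3 and 58.9% against 0.0842 and 0.332%. *Krt19* was found in 13.0 and 8.95% of thinned members (exact binomial 95% intervals 7.27 to 20.8% and 5.30 to 13.9%), and in 0 of 2374 and 0 of 2412 SGCs, which at this thinned depth allows shares of cells with a UMI of up to 0.126 and 0.124% (3 counts, counting error only). *Ntng1* was found in 38.9 and 39.5% of thinned members and in 3.83 and 2.82% of SGCs. *Ptch1* was found in 56.5 and 56.3% of thinned members, in 52.1 and 32.9% of Ccl11 fibroblasts and in 22.1 and 24.6% of SGCs. For all 4 genes the intervals of the members' thinned shares overlapped between the replicates. Without thinning, *Krt19* was found in 36.1 and 29.5% of members and 0.0842 and 0.207% of SGCs, and *Ptch1* in 79.6 and 78.4% of members and 80.2 and 84.0% of SGCs, so the order for *Ptch1* rested on the thinning.

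The label was set beside perineurial markers that the rule did not use. These were listed with earlier results of these data known, and *Krt19*, *Dleu7* and *Msln* passed the count filter through the members alone. The counts and medians therefore describe the members and do not test the label. Of 9 such genes that passed the count filter, 7 were higher and 0 lower against Ccl11 fibroblasts, where 7.05% of all genes tested were higher and 6.25% lower. Their median log2 fold change was 4.94, against 0.04 over all genes. Against Igf2 fibroblasts 7 were higher and 0 lower (median 4.65), where 7.21% of all genes were higher and 5.16% lower with a median of 0.09. Against endothelial cells 8 were higher and 1 lower (median 7.79), where 22.6% of all genes were higher and 22.8% lower with a median of 0. *Ntng1*, a netrin-G of cell surfaces, was at 432 and 493, against 3.69 and 5.15 in Ccl11 fibroblasts (log2 fold change 6.60, SE 0.47, edgeR's quasi-likelihood adjusted p = 1.99e-08). Non-myelinating Schwann cells held 210.4 and 211 of it. *Mpzl2*, an adhesion molecule, was at 115 and 114, with 2 UMIs in Ccl11 fibroblasts (ratio 91, counting interval 25.1 to 753). *Tenm2*, a teneurin of cell contacts, was at 1601 and 2120.0 in the members and at 1921 and 1373 in Ccl11 fibroblasts, a difference that did not pass (adjusted p = 0.989, edgeR's quasi-likelihood test), while Igf2 fibroblasts held 1 UMI. *Sfrp5*, a secreted Wnt antagonist, was at 322 and 264 and was higher in SGCs, at 821 and 813. *Msln*, a surface protein of mesothelium, was at 24.6 and 10.9 and absent from the other types in the comparison, while the other mesothelial markers *Upk3b*, *Lrrn4* and *Wt1* had no UMI in the members. *Moxd1*, at 9.24 and 3.01, fell below the count filter.

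Markers of other cell types were summed in the members' profiles. *Fabp7*, *Ncmap*, *Scn7a*, *Rgs5*, *C1qa* and *Flt1* among them were limited by the rule, so the sums for glia, mural cells, macrophages and endothelial cells are low in part by construction. Markers of epithelium summed to 0.616 and 0 CPM, with *Krt5*, *Krt14* and *Krt15* at 0. Markers of macrophages summed to 12.3 and 17.7, of mural cells to 8.01 and 15.1, of neurons to 62.2 and 56.8 and of non-myelinating Schwann cells to 21.6 and 24.1. SGC markers summed to 415 and 440, of which *Fabp7* made up 254 and 290.5, against 12501 and 12731 of *Fabp7* in SGCs. Myelinating Schwann markers summed to 123 and 245. Endothelial markers summed to 161 and 181, of which *Cdh5* made up 152 and 167, with *Pecam1* at 0 in replicate 2. Fibroblast markers summed to 16697 and 19811, led by *Dcn*, a collagen-binding proteoglycan, at 13852 and 16772. *Pdgfra* was detected in 56.5 and 59.5% of the members. The part of fibroblasts in the members' profile was not tested beyond the sets given below.

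Markers of the arachnoid barrier and leptomeninges, the sheaths of the brain and nerve roots that continue into the perineurium, were also present. They summed to 1931 and 1504, led by *Slc47a1* in replicate 1 and *Klf5* in replicate 2, with *Slc22a6* at 0. Of 11 tested, 7 were higher and 0 lower against Ccl11 fibroblasts (median 2.66). Against Igf2 fibroblasts 6 were higher and 0 lower (median 2.99), and against endothelial cells 9 and 0 (median 3.70). Shares over all genes tested were 7.05% higher and 6.25% lower, 7.21 and 5.16%, and 22.6 and 22.8% in the same order. *Slc47a1*, an exporter of organic cations, was at 533 and 282, against 2.46 and 16.7 in Ccl11 fibroblasts and 570.3 and 549 in Igf2 fibroblasts. Its log2 fold change against Ccl11 fibroblasts was 5.30 over all members and -1.24 over members that carried neither the *Igf2* nor the *Ccl11* set of genes. *Crabp2*, a carrier of retinoic acid, was at 229.8 and 166, against 3.69 and 5.15 in Ccl11 fibroblasts and 108 and 118 in Igf2 fibroblasts, and with no demand on *Igfbp6* its log2 fold change against the latter went from 0.77 to -0.04. *Slc6a13*, a transporter of GABA and taurine, was at 232 and 235, against 106 and 96.6 in Ccl11 fibroblasts, and had no UMI in Igf2 fibroblasts, at least 85.1-fold higher. *Ptgds*, a prostaglandin D synthase of leptomeninges, was at 374 and 242, against 3.69 and 11.6 and against 0 and 3.43. So *Slc6a13*, *Ptgds* and *Klf5* were higher in the members than in Igf2 fibroblasts, while *Slc47a1* lay below them in both replicates, a difference that did not pass (log2 fold change -0.49, SE 0.33, edgeR's quasi-likelihood adjusted p = 0.436).

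The members were uneven, and the name fits some of them better than others. They were parted by how many of the 5 genes of the rule were detected, a split made after the values were seen and described here without a test. With 2, 3, 4 and 5 genes there were 28, 33, 26 and 21 members in replicate 1 and 59, 43, 39 and 49 in replicate 2. *Krt19* stood at 17.8, 57.4, 114 and 176 CPM across these in replicate 1 and at 6.30, 13.6, 103 and 116 in replicate 2. *Ntng1* stood at 71.3, 349, 548 and 909 and at 144, 281, 593 and 968. *Itga6*, the partner of integrin beta 4, stood at 11.9, 144, 277 and 581 and at 25.2, 223, 596 and 646. All 3 were higher with each added gene in both replicates. *Slc47a1* went the other way, at 1176, 529, 154 and 0 in replicate 1 and at 691, 293, 11.1 and 31.3 in replicate 2. *Cdh11*, a cadherin of mesenchyme, showed no such order, at 438, 562, 548 and 474 and at 505, 339, 423 and 425. The median mitochondrial share also differed, at 7.02, 7.78, 8.64 and 12% and at 5.76, 4.95, 7.65 and 9.46%, and its part in these differences was not tested.

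**Figure D2:**
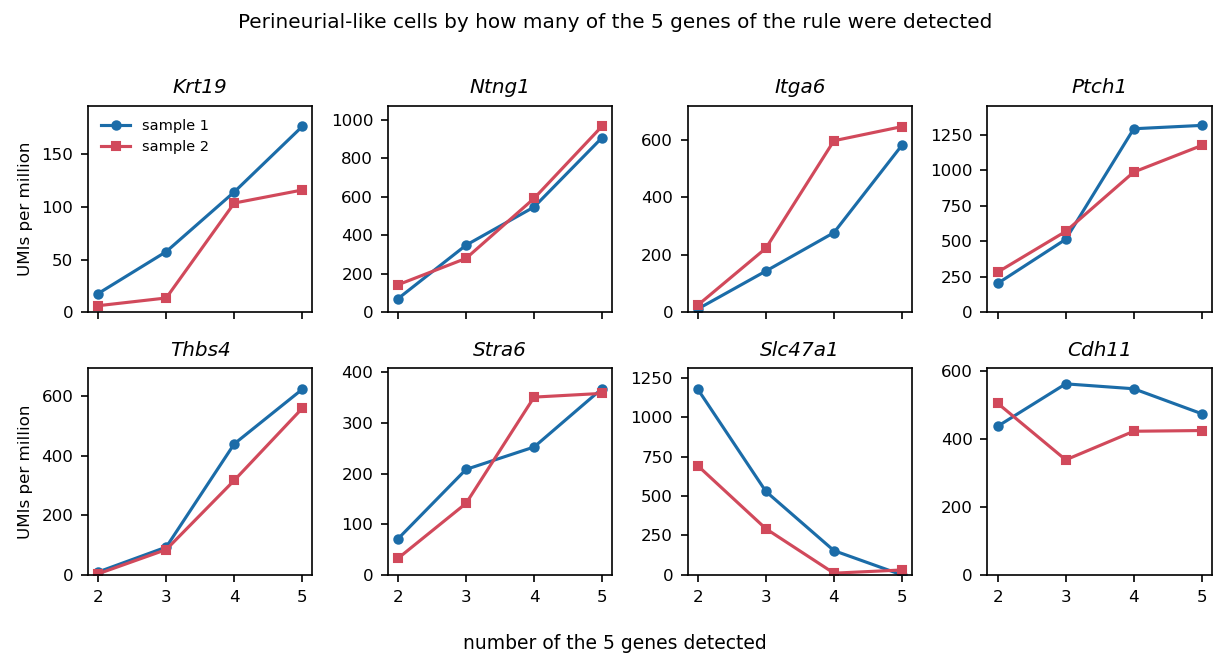
Levels of 8 genes outside the rule (CPM, vertical axes from 0) in perineurial-like cells with 2, 3, 4 or 5 of the 5 genes of the rule detected (horizontal axis), with a line for each sample. Krt19, Ntng1, Itga6, Ptch1, Thbs4 and Stra6 are highest where all 5 genes were detected, Slc47a1 is highest where 2 were, and Cdh11 has no steady order.

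A second split, also made after seeing the values, used the genes that gated the fibroblasts. Members with at least 5 UMIs of *Igf2*, *Slc4a10* and *Sfrp4* summed numbered 32 (29.6%) and 40 (21.1%). Members with at least 2 UMIs of *Ccl11* numbered 26 (24.1%) and 56 (29.5%), and members with neither numbered 50 (46.3%) and 94 (49.5%). *Itgb4* was highest in the set with neither, at 625 and 519, against 19 and 68.2 in the Igf2 set and 223 and 284 in the Ccl11 set. *Itga6* was at 457 and 625 in the set with neither, at 22.5 and 77.7 in the Igf2 set and at 145 and 193 in the Ccl11 set. *Krt19* was at 152 and 109 in the set with neither, 25.9 and 20.6 in the Igf2 set and 51 and 15.3 in the Ccl11 set. *Ntng1* was at 753 and 789 in the set with neither, at 211 and 358 in the Igf2 set and at 196 and 184 in the Ccl11 set. Outside the rule, *Itga6*, *Krt19* and *Ntng1* thus stood highest in the members of neither set. *Perp* followed another order, at 156 and 184 in the Igf2 set, 26.8 and 28.2 in the Ccl11 set and 109 and 93.6 in the set with neither.

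The leptomeningeal markers did not share an order over the 3 sets. *Slc47a1* was at 1488 and 1179 in it, at 5.36 and 0 in the Ccl11 set and at 2.98 and 5.10 in the set with neither, so nearly all of it came from the Igf2 set. *Crabp2* was at 437 and 425 in the Igf2 set, at 42.9 and 32.9 in the Ccl11 set and at 155 and 122 in the set with neither. *Ptgds*, *Klf5* and *Slc6a13* stood highest in the set with neither. *Ptgds* was there at 828 and 411, against 64.0 and 33.3 in the Igf2 set and 37.5 and 163 in the Ccl11 set. *Klf5* was at 462 and 469, against 121 and 152 and against 215 and 227, and *Slc6a13* at 426 and 360, against 0 and 28.5 and against 241 and 216. *Col12a1*, a collagen that decorates fibrils, was at 1452 and 1444 in the Igf2 set and at 24.1 and 25.8 and at 131 and 135 in the others. *Tenm2* was at 76 and 379 there, against 2392 and 2825 in the Ccl11 set and 2476 and 2544 in the set with neither. The Ccl11 set stood apart by *Apod*, a secreted lipid carrier, at 41419 and 48532, against 1301 and 867 in the Igf2 set and 9093 and 9045 in the set with neither. *Ptch1* was at 77.8 and 79.3 in the Igf2 set, 1014 and 713 in the Ccl11 set and 1204 and 1107 in the set with neither. The rule therefore gathered cells of unlike profiles, and *Tenm2* and *Ptch1* were high in the Ccl11 set as well as in the set with neither. The median mitochondrial share of the set with neither was 10.7 and 8.69%, against 7.90 and 6.54% in the Igf2 set and 5.10 and 4.47% in the Ccl11 set.

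**Figure D3:**
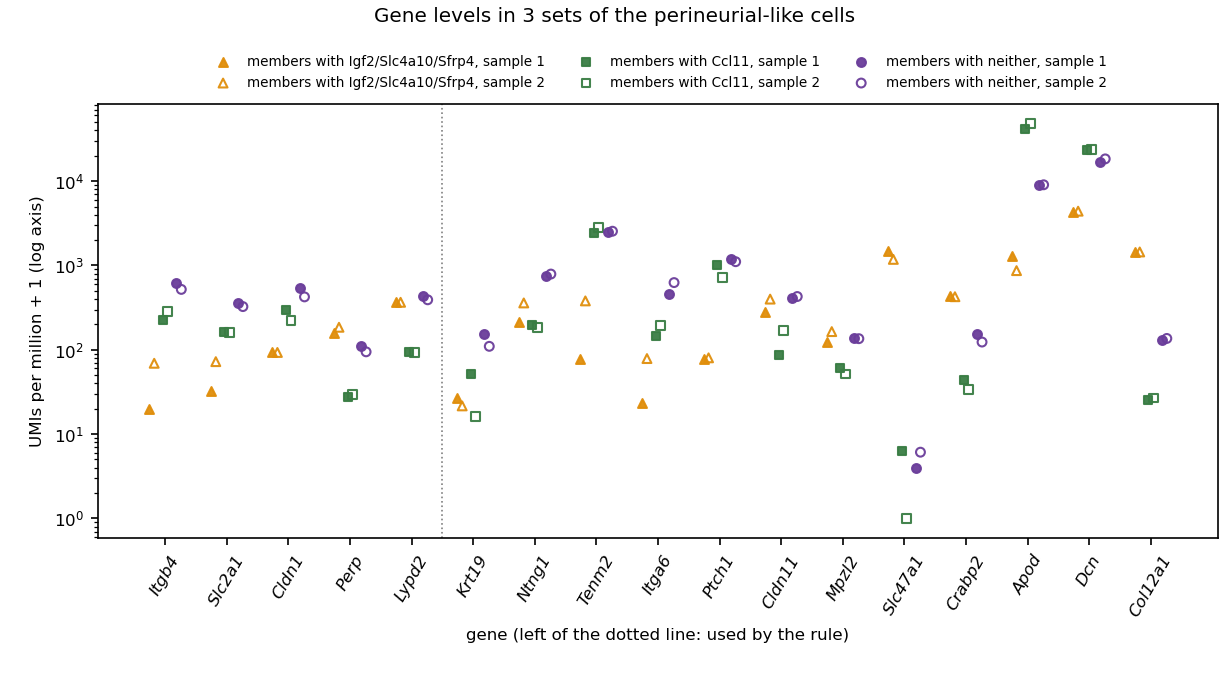
Levels of 17 genes (log axis of CPM + 1) in perineurial-like cells with Igf2, Slc4a10 and Sfrp4 (triangles), with Ccl11 (squares) or with neither (circles), filled for sample 1 and open for sample 2. Itgb4, Itga6 and Ptch1 are lowest in the Igf2 set, Slc47a1 and Col12a1 are highest in it, and Apod and Dcn are highest in the Ccl11 set.

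Variation from cell to cell was described over all genes with enough UMIs. Members thinned to 2000 UMIs were ranked by the ratio of variance to mean, for 632 genes. The 10 highest in replicate 1 were *Apod*, *Ptgds*, *Gm42418*, *Dcn*, *Mgp*, *Fos*, *Malat1*, *Apoe*, *Igf2* and *Ecrg4*, and of the 20 highest 15 were shared with replicate 2. Of these, *Apod*, *Ptgds* and *Dcn* also differed between the sets of members described above. *Igf2* was among the genes that defined the Igf2 set, so it had to differ. *Apod* had ratios of 70.9 and 79.1, against a median over genes of 1.3 in both. *Ptgds* had 24.9 and 15.3, and *Igf2*, a growth factor, 10.1 and 10.0. *Gm42418* overlaps ribosomal RNA sequence, so its counts may not stem from messenger RNA.

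Over all genes, 1179 were higher and 1046 lower in the perineurial-like cells than in Ccl11 fibroblasts, 1207 higher and 864 lower than in Igf2 fibroblasts, and 3786 higher and 3811 lower than in endothelial cells (edgeR's quasi-likelihood test, adjusted p under 0.05). As shares of the 16730 genes tested these were 7.05 and 6.25%, 7.21 and 5.16%, and 22.6 and 22.8%. Counts of every gene list below are to be read beside these shares. The balance of higher and lower calls depended on the tool, the scaling and the gate. Of the calls against Ccl11 fibroblasts 53.0% were higher, and with DESeq2 there were 1054 higher and 1309 lower (44.6% higher), and with RLE size factors 1059 and 1176. They were 1177 and 1248 with a stricter gate of the members, 1196 and 1224 with stricter caps on other types and 1175 and 1320 with at least 4 of the 5 genes. Of the calls against Igf2 fibroblasts 58.3% were higher, and with DESeq2 the share was 47.7%. Over all gene lists counted, those of perineurial and leptomeningeal markers included, 19 counts were 0, of which 5 were above 0 at an unadjusted p under 0.05 (*Cldn10* and *Jam3* among tight junction genes, *Igf1r* and *Aldh1a2* against Igf2 fibroblasts, *Gli3* against Ccl11 fibroblasts and *Acta2* against endothelial cells) and 2 with DESeq2 (*Gli3* and *Acta2*). Since the fibroblast gates allowed at most 1 UMI of the 5 genes of the rule, genes that accompany those 5 were also set apart by the gates, and p-values do not allow for that. The members and the comparison types came from the same libraries.

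**Figure D4:**
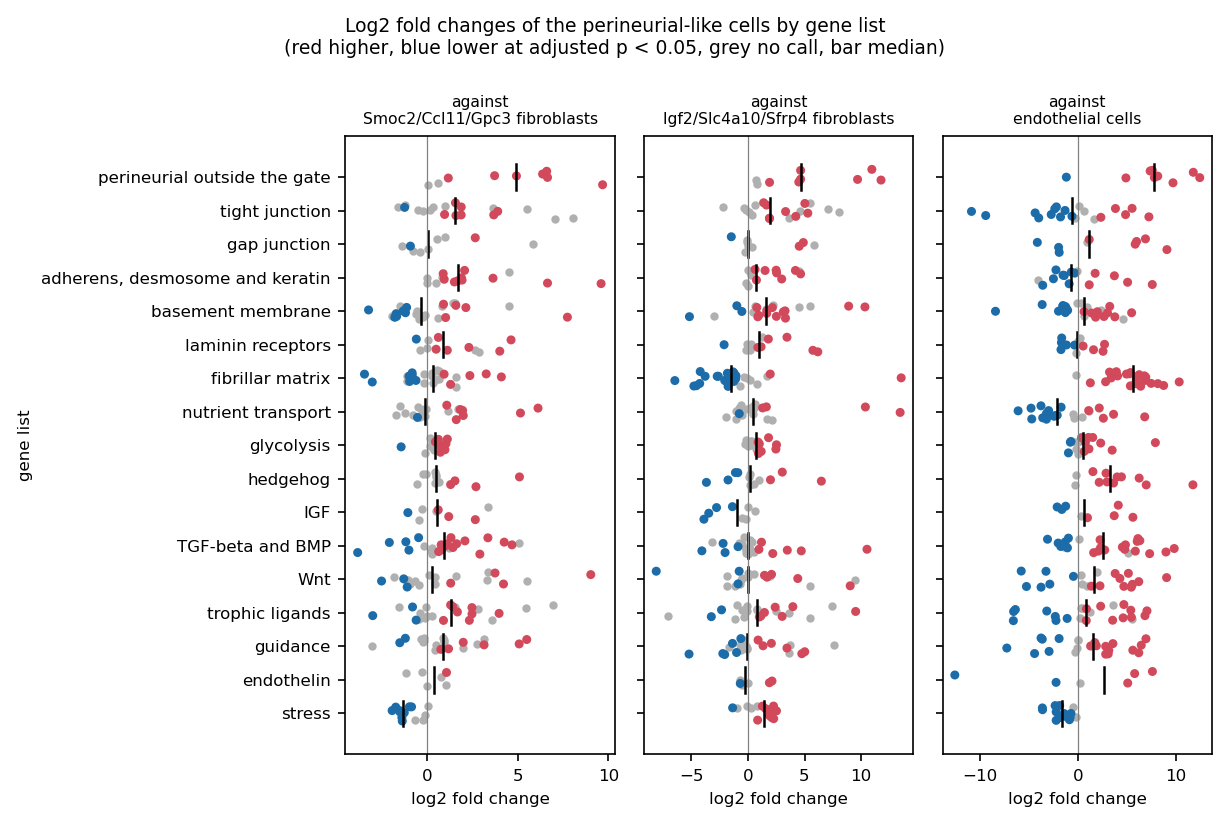
Log2 fold changes of the perineurial-like cells against Ccl11 fibroblasts, Igf2 fibroblasts and endothelial cells (3 panels, horizontal axis) for the tested genes of each list (rows), where red dots are higher and blue dots lower at an adjusted p under 0.05, grey dots have no call and bars are medians. Perineurial markers outside the rule are red or grey in both fibroblast panels, and all but Crispld1 are red against endothelial cells. The median of fibrillar matrix genes is -1.52 against Igf2 fibroblasts and 5.60 against endothelial cells. That of stress genes is -1.30 against Ccl11 fibroblasts and 1.43 against Igf2 fibroblasts.

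Of 19 tight junction genes tested, 7 were higher, 1 lower and 11 without a call against Ccl11 fibroblasts (median log2 fold change 1.58). Against Igf2 fibroblasts 8 were higher, 0 lower and 11 without a call (1.91), and against endothelial cells 5 were higher and 10 lower (-0.63). *Tjp1*, the scaffold protein ZO-1, was at 389 and 368, against 109 and 126 and against 149 and 94.4 in the fibroblasts and 1104 and 1340.4 in endothelial cells. The log2 fold change was 1.58 (SE 0.16) against Ccl11 fibroblasts and -1.80 (SE 0.13) against endothelial cells (edgeR's quasi-likelihood adjusted p = 1.18e-06 and 7.83e-10). *F11r*, the junctional adhesion molecule JAM-A, was at 179.9 and 182, against 39.4 and 72.1, 0 and 8.58, and 154 and 153 in endothelial cells, where the difference did not pass (adjusted p = 0.505, edgeR's quasi-likelihood test). *Ocln*, occludin, was at 30.2 and 31.2, with 3 UMIs in Ccl11 fibroblasts (ratio 16.3, counting interval 5.47 to 80.2), and at 19.6 and 19.5 in endothelial cells. *Cldn5*, the claudin of endothelial barriers, was at 1.23 and 1.51 in the members and at 2424 and 2597 in endothelial cells. *Jam2*, another junctional adhesion molecule, was lower than in Ccl11 fibroblasts, at 46.2 and 56.4 against 119 and 107. Occludin and JAM-A were thus carried by both the members and endothelium, while *Cldn11* was high in the members and *Cldn5* in endothelium.

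Among gap junction genes 1 was higher and 1 lower of 9 against Ccl11 fibroblasts (median 0.09), 2 and 1 against Igf2 fibroblasts (-0.03) and 5 and 3 against endothelial cells (1.13). The shares over all genes were 7.05% higher and 6.25% lower, 7.21 and 5.16%, and 22.6 and 22.8% in the same order. With so few calls, the counts against the fibroblasts are not read as a result about gap junction genes. *Gjb2*, connexin 26, was at 35.7 and 49.3, against 6.15 and 6.44 in Ccl11 fibroblasts and 1.97 and 1.72 in Igf2 fibroblasts, and was 1 of the 105 genes higher than in each other type. *Gja1*, connexin 43, was at 62.2 and 68.1 and was lower than in Igf2 fibroblasts, at 210.4 and 153, and than in endothelial cells, at 209 and 256. Of 15 tested genes of adherens junctions, desmosomes and keratins, 10 were higher and 0 lower against Ccl11 fibroblasts (median 1.70), 8 and 0 against Igf2 fibroblasts (0.75) and 5 and 8 against endothelial cells (-0.69). *Cdh5*, VE-cadherin, was at 152 and 167, against 29.5 and 41.2 in Ccl11 fibroblasts (log2 fold change 2.08, SE 0.24, edgeR's quasi-likelihood adjusted p = 4.51e-06) and 719 and 717 in endothelial cells. *Cdh1*, E-cadherin, was at 43.1 and 27.8, against 1.23 and 3.86 in Ccl11 fibroblasts and 158 and 192 in myelinating Schwann cells. *Jup*, plakoglobin, was at 95.5 and 74.9, against 20.9 and 20.6 and against 37.4 and 60.1. The desmosomal and keratin genes *Dsp*, *Krt8* and *Krt18* were at 0.753 CPM or less in the members.

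Basement membrane genes split by chain. Of 24 tested, 5 were higher and 7 lower against Ccl11 fibroblasts (median -0.34), 12 and 3 against Igf2 fibroblasts (1.62) and 9 and 9 against endothelial cells (0.60). For all genes tested the shares were 7.05% higher and 6.25% lower, 7.21 and 5.16%, and 22.6 and 22.8% in the same order. *Lamb2*, the laminin beta 2 chain, was at 336 and 268, against 151 and 119.8 in Ccl11 fibroblasts, 151 and 172 in Igf2 fibroblasts and 80.6 and 81.5 in endothelial cells, and was higher than in each of the 8 types. *Lama4* was at 242 and 239.7, against 127 and 109 and against 126 and 122 in the fibroblasts, and in endothelial cells at 259 and 232. *Nid2*, a nidogen that links laminin to collagen IV, was at 74.5 and 73.4, against 18.5 and 27 in Ccl11 fibroblasts and 9.83 and 5.15 in Igf2 fibroblasts. *Lama2* was lower than in Ccl11 fibroblasts, at 802 and 953 against 2666 and 2507 (log2 fold change -1.67, SE 0.16, edgeR's quasi-likelihood adjusted p = 6.11e-07). *Col15a1* was lower in the same comparison, at 99.2 and 119 against 1063 and 831. The alpha 4 and beta 2 laminin chains and nidogen 2 were thus higher than in both kinds of fibroblast, and the alpha 2 chain lay between them. With no demand on *Igfbp6* the calls for *Lamb2* against the fibroblasts were lost.

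Laminin receptor genes included *Itga6*, the integrin partner of the gate gene *Itgb4*. Of 12 tested, 6 were higher and 1 lower against Ccl11 fibroblasts (median 0.88), 6 and 1 against Igf2 fibroblasts (1.02) and 4 and 5 against endothelial cells (-0.13). *Itga6* was at 230.4 and 357, against 7.38 and 27 in Ccl11 fibroblasts (log2 fold change 4.02, SE 0.31) and 7.87 and 3.43 in Igf2 fibroblasts (5.74, SE 0.44, edgeR's quasi-likelihood adjusted p = 5.23e-08 and 2.78e-08). Endothelial cells held 329 and 335, which did not differ past the threshold (adjusted p = 0.234, edgeR's quasi-likelihood test). *Bcam*, the Lutheran laminin receptor, was at 71.5 and 65.5, against 2.46 and 2.58 in Ccl11 fibroblasts and 221 and 193 in endothelial cells. *Cd151*, a tetraspanin that partners laminin-binding integrins, was at 192 and 159.5, against 82.4 and 65.7 and against 102 and 87.5 in the fibroblasts.

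Of 26 fibrillar matrix genes tested, 25 were higher and 0 lower against endothelial cells (median 5.60), and 2 were higher and 18 lower against Igf2 fibroblasts (-1.52). Against Ccl11 fibroblasts 5 were higher and 7 lower (0.33), and with at least 4 of the 5 genes asked of the members 3 were higher and 8 lower with a median of -0.83. *Col1a2* was at 1559 and 1405, against 2934 and 2474, 6503 and 5695, and 15.4 and 17.4 in endothelial cells. *Col3a1* was at 1305 and 991, against 2276 and 1436 and against 6281 and 7662 in the fibroblasts. *Col14a1*, a collagen of fascia, was at 35.7 and 14.7 and was lower than in Igf2 fibroblasts, at 753 and 517 (log2 fold change -4.77, SE 0.27, edgeR's quasi-likelihood adjusted p = 1.3e-09). Both fibril-forming chains were thus lower than in either kind of fibroblast and higher than in endothelial cells. The fibroblast gates demanded at least 2 UMIs of the collagen gene *Col1a1*, which the members' rule did not. The part of that demand in these differences was not tested.

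Among 21 nutrient transport genes tested, 7 were higher and 1 lower against Ccl11 fibroblasts (median -0.10), 4 and 1 against Igf2 fibroblasts (0.42) and 5 and 12 against endothelial cells (-2.13). *Slc16a1*, the monocarboxylate transporter MCT1 that carries lactate, was at 288 and 281, against 61.5 and 73.4, 76.7 and 149, and 41.7 and 46.7 in endothelial cells, and was higher than in each of the 8 types. Its log2 fold change was 1.97 (SE 0.22) against Ccl11 fibroblasts and 2.58 (SE 0.18) against endothelial cells (edgeR's quasi-likelihood adjusted p = 3.07e-06 and 5.47e-10). *Slc38a2*, a neutral amino acid transporter, was at 882 and 766, against 161 and 220.2 in Ccl11 fibroblasts and 653 and 758 in Igf2 fibroblasts. *Abcb1a*, the drug efflux pump P-glycoprotein, was at 138 and 108, against 1.23 and 5.15 in Ccl11 fibroblasts, 197 and 213 in Igf2 fibroblasts and 1324 and 1455 in endothelial cells. *Slc7a5*, the large neutral amino acid transporter of endothelial barriers, was at 1.85 and 7.53 against 371 and 328 there. Compared with endothelial cells, the members thus carried more of the lactate carrier and little of the amino acid carrier.

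Of 17 glycolysis genes tested, 8 were higher and 1 lower against Ccl11 fibroblasts (median 0.47), 7 and 0 against Igf2 fibroblasts (0.75) and 9 and 3 against endothelial cells (0.53). *Aldoa*, aldolase A, was at 537 in both replicates, against 248 and 286 in Ccl11 fibroblasts and 239.9 and 288 in Igf2 fibroblasts. *Tpi1*, triosephosphate isomerase, was at 218 and 243, against 92.3 and 104 and against 114 and 132. *Ldhb*, the heart-type lactate dehydrogenase, was at 261 and 289.7, against 109 and 138 and against 45.2 and 49.8. *Hk2*, a hexokinase, was the 1 gene that was lower than in Ccl11 fibroblasts, at 101 and 76.4 against 268 and 162 (log2 fold change -1.42, SE 0.22, edgeR's quasi-likelihood adjusted p = 0.000115).

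Hedgehog pathway genes included the receptor *Ptch1* (chr13:63508328-63573598, minus strand), itself a target of the pathway. It stood at 759 and 737 CPM, against 273 and 287 in Ccl11 fibroblasts, 11.8 and 5.15 in Igf2 fibroblasts, 34.4 and 30.6 in endothelial cells and 128 and 135 in SGCs. Its log2 fold change was 1.31 (SE 0.12) against Ccl11 fibroblasts and 6.49 (SE 0.22) against Igf2 fibroblasts (edgeR's quasi-likelihood adjusted p = 2.25e-07 and 9.87e-13), and it was higher than in each of the 8 types. Of 12 genes of the list tested, 4 were higher and 0 lower against Ccl11 fibroblasts (median 0.52), 3 and 4 against Igf2 fibroblasts (0.21) and 10 and 0 against endothelial cells (3.29). *Hhip*, a decoy that binds hedgehog ligands, was at 61.6 and 78.3, with 3 UMIs in Ccl11 fibroblasts (ratio 38.1, counting interval 12.9 to 186) and none in endothelial cells, at least 148-fold higher. *Gli1*, the transcription factor induced by the pathway, was at 48.1 and 43.6, against 34.4 and 24.5 in Ccl11 fibroblasts, where the difference did not pass (adjusted p = 0.398), and against 9.83 and 1.72 in Igf2 fibroblasts (log2 fold change 3.04, SE 0.54, edgeR's quasi-likelihood adjusted p = 0.000527). The co-receptors *Gas1* and *Cdon* were lower than in Igf2 fibroblasts, *Gas1* at 115 and 77.9 against 1323 and 1057 and *Cdon* at 87.5 and 50 against 236 and 211. The ligand *Dhh* was at 14.8 and 12.8 in the members and at 237 and 228 in SGCs and 164 and 188 in non-myelinating Schwann cells. The receptor thus stood highest in the members, and the ligand in the glia.

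Of 24 genes of TGF-beta and BMP signalling tested, 13 were higher and 5 lower against Ccl11 fibroblasts (median 0.92), 6 and 4 against Igf2 fibroblasts (0.04) and 15 and 6 against endothelial cells (2.50). Against Igf2 fibroblasts the count turned to 5 higher and 6 lower with DESeq2. Among the ligands, *Bmp6* was at 176 and 192, against 18.5 and 27 in Ccl11 fibroblasts, 0 and 30.9 in Igf2 fibroblasts and 63.1 and 52.1 in endothelial cells (log2 fold change 1.59, SE 0.23, edgeR's quasi-likelihood adjusted p = 9.62e-06). *Bmp5* was lower than in Ccl11 fibroblasts, at 90.6 and 103 against 429 and 327. *Bmpr1b*, a type I receptor, was at 94.3 and 100.1, against 24.6 and 42.5 and against 5.90 and 1.72. *Bmp6*, *Bmpr1b* and *Ltbp4*, which binds latent TGF-beta in the matrix, were all higher than in each of the 8 types. Of 20 Wnt genes tested, 4 were higher and 3 lower against Ccl11 fibroblasts (median 0.27), 5 and 3 against Igf2 fibroblasts (0.01) and 10 and 6 against endothelial cells (1.63). The stricter gate on the members turned the first of these to 3 and 4 and the second to 4 and 6. Over all genes the shares were 7.05% higher and 6.25% lower, 7.21 and 5.16%, and 22.6 and 22.8% in the same order. *Wnt6* was at 287 and 299, against 12.3 and 28.3 in Ccl11 fibroblasts (log2 fold change 3.76, SE 0.21, edgeR's quasi-likelihood adjusted p = 1.88e-09), 13.8 and 13.7 in Igf2 fibroblasts and 211 and 248 in non-myelinating Schwann cells. *Wnt10a* was at 8.63 and 12.8 with no UMI in the fibroblasts or endothelial cells, at least 5.94-fold, 4.08-fold and 23.1-fold higher, and it too met the filter on low counts through the members alone. *Wnt5a* was lower than in Ccl11 fibroblasts, at 55.4 and 95.6 against 167 and 182.

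Several ligands for neurons and glia were measured. Of 23 trophic ligands tested, 8 were higher and 3 lower against Ccl11 fibroblasts (median 1.31), 7 and 2 against Igf2 fibroblasts (0.83) and 10 and 7 against endothelial cells (0.85). *Nrtn*, neurturin, was at 12.3 and 17.7, against 2.46 and 2.58 in Ccl11 fibroblasts, with no UMI in Igf2 fibroblasts, at least 5.69-fold higher, and it was higher than in each of the 8 types. *Ptn*, pleiotrophin, was at 569 and 494, against 49.2 and 147 and against 62.9 and 132 in the fibroblasts, and was higher in SGCs, at 3771 and 3621. *Cxcl12*, a chemokine, was lower than in all 3 comparison types, at 9.24 and 24.5 against 132 and 138, 295 and 58.3, and 1711 and 1633. So neurturin stood highest in the members, and pleiotrophin and the chemokine elsewhere. With no demand on *Igfbp6* the call for *Nrtn* against Ccl11 fibroblasts was lost, and with at least 4 of the 5 genes those for *Ptn* against both kinds of fibroblast.

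Of 22 guidance genes tested, 6 were higher and 2 lower against Ccl11 fibroblasts (median 0.89), 6 and 6 against Igf2 fibroblasts (-0.10) and 12 and 6 against endothelial cells (1.49). *Slit2*, a repellent of axons, was at 386 and 298, against 4.92 and 9.01 in Ccl11 fibroblasts (log2 fold change 5.51, SE 0.54, edgeR's quasi-likelihood adjusted p = 7.13e-07) and 541 and 546 in Igf2 fibroblasts. Within the members it was at 1028 and 1182 in the Igf2 set, and the call was lost without the members of the Igf2 and Ccl11 sets. *Efnb1*, an ephrin, was at 150.3 and 167, against 70.1 and 104 and against 51.1 and 25.7, and was higher than in each of the 8 types. *Nrp2*, a semaphorin receptor, was at 246 and 291, against 283 and 295 in Ccl11 fibroblasts and 0 and 15.4 in Igf2 fibroblasts. Among 6 endothelin genes tested, 1 was higher and 0 lower against Ccl11 fibroblasts (median 0.38), 2 and 1 against Igf2 fibroblasts (-0.24) and 3 and 2 against endothelial cells (2.61). Against Ccl11 fibroblasts 7.05% of all genes were higher and 6.25% lower, so 1 call among 6 genes says little about the list. The ligand gene *Edn3* was at 43.1 and 39.9 and the receptor gene *Ednrb* at 75.2 and 56.1, against 973 and 1008 of *Ednrb* in SGCs.

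**Figure D5:**
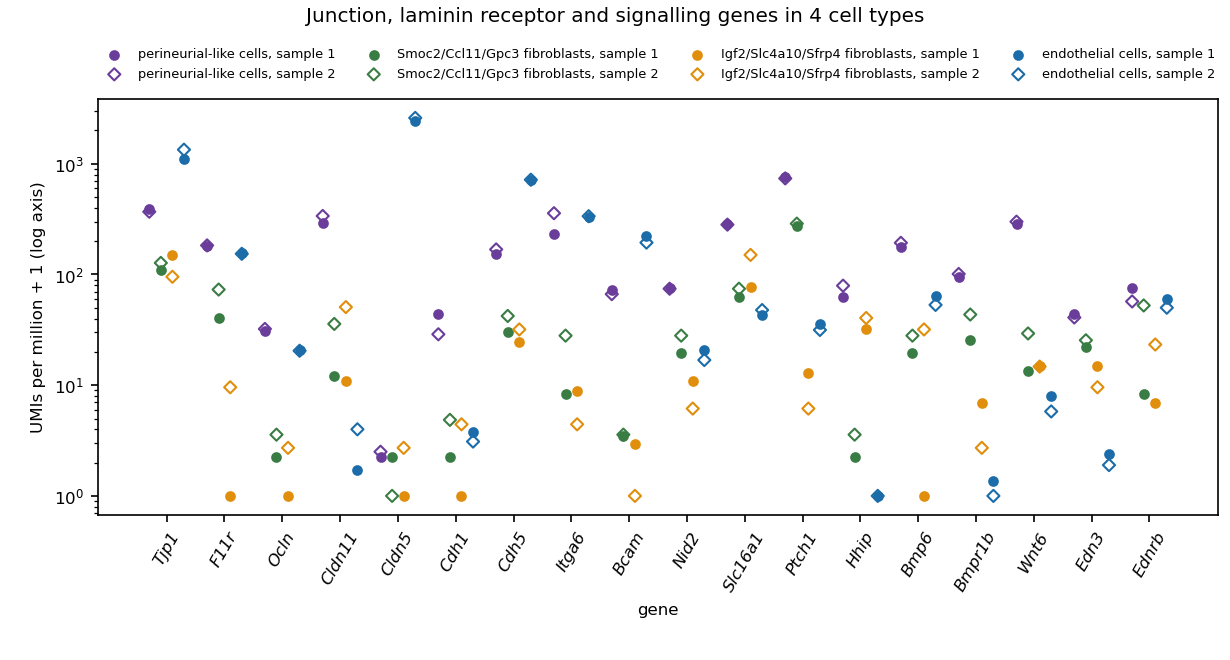
Levels of 18 junction, laminin receptor and signalling genes (log axis of CPM + 1) in perineurial-like cells, Ccl11 fibroblasts, Igf2 fibroblasts and endothelial cells, filled for sample 1 and open for sample 2. Cldn5 is high in endothelial cells and near 0 in the perineurial-like cells, where Cldn11, Slc16a1, Ptch1, Bmp6 and Wnt6 stand above the other 3 types.

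Genes of the insulin-like growth factor axis gave no stable direction against Ccl11 fibroblasts. Of 8 tested, 3 were higher and 1 lower (median 0.57), and with at least 4 of the 5 genes asked of the members 1 was higher and 2 lower with a median of -0.18. Against Igf2 fibroblasts 0 were higher and 4 lower (-0.96), and against endothelial cells 4 and 3 (0.62). *Igf1* was at 198 and 133, against 342 and 283 and against 2090.3 and 1493 in the fibroblasts. *Igfbp5* was at 885 and 425, against 203 and 322 in Ccl11 fibroblasts (log2 fold change 1.21, SE 0.34, edgeR's quasi-likelihood adjusted p = 0.0211), but with at least 4 of the 5 genes the log2 fold change was -1.41. It was at 10813 and 8324 in Igf2 fibroblasts.

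Of 28 transcription factors of mesenchyme tested, 11 were higher and 4 lower against Ccl11 fibroblasts (median 0.22), 9 and 9 against Igf2 fibroblasts (0.03) and 22 and 3 against endothelial cells (5.53). With no demand on *Igfbp6* the first of these turned to 4 higher and 8 lower. *Sox9*, a factor of neural crest and cartilage, was at 98.6 and 112, against 121 and 174 in Ccl11 fibroblasts and 5.90 and 1.72 in Igf2 fibroblasts. The difference from Ccl11 fibroblasts did not pass (edgeR's quasi-likelihood adjusted p = 0.164), but did with the replicate as a block (adjusted p = 0.0353, and 0.00224 to 0.639 over the alternatives). *Foxc1*, a forkhead factor needed for the meninges, was at 179.9 and 165, against 71.3 and 70.8 and against 214 and 192. *Tbx18* was lower than in Ccl11 fibroblasts, at 30.2 and 37.6 against 82.4 and 59.2, a call that was lost with the stricter gate. Of 11 smooth muscle genes, 2 were higher and 0 lower against Ccl11 fibroblasts (median 0.71), 4 and 0 against Igf2 fibroblasts (1.07) and 5 and 0 against endothelial cells (0.94). All genes tested gave 7.05% higher and 6.25% lower, 7.21 and 5.16%, and 22.6 and 22.8% in the same order. The count of 2 of 11 is thus not read as a result about smooth muscle genes. *Tagln*, transgelin, was at 164 and 144, against 4.92 and 5.15 in Ccl11 fibroblasts, 68.8 and 53.2 in Igf2 fibroblasts and 2719 and 3157 in mural cells.

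Immediate early and stress genes, which enzymatic dissociation can induce, differed in opposite directions between the comparisons. Of 14 tested, 0 were higher and 10 lower against Ccl11 fibroblasts (median -1.30), 9 and 1 against Igf2 fibroblasts (1.43) and 0 and 12 against endothelial cells (-1.65). *Fos* was at 1671 and 3106, against 5308 and 6087 in Ccl11 fibroblasts and 895 and 712 in Igf2 fibroblasts. *Jun* was at 640.1 and 1071, against 2754 and 3260.4 and against 476 and 465. The part of dissociation in the other differences was not tested.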

How the data were processed

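The deposited matrices hold UMI counts per gene and barcode for both samples, made by the authors with Cell Ranger 7.1.0 per the file headers and aligned to mm10 per the submitters' processing notes. The annotation version is not given in the sources used here. Coordinates came from GENCODE on GRCm38, where 32158 of 32285 gene identifiers matched. Unfiltered barcodes were deposited, 1762921 and 1832899, so the quality terms were applied here, and barcodes of at most 100 UMIs served as the profile of empty-droplet RNA.

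Members and comparison types were gated on the UMI counts of the same cells. Fibroblasts needed at least 2 UMIs of *Col1a1*, 1 of *Pdgfra* and at most 1 of the 5 genes, with at least 5 UMIs of their own 3 genes and at least 3 times those of the other kind. The other types were endothelial, mural and satellite glial cells, macrophages, and myelinating and non-myelinating Schwann cells. Neurons, with under 20 cells per sample, were not used. UMIs were summed per type and sample, and 9 types were fitted together with edgeR 4.0.16 in R 4.3.3 (TMM, quasi-likelihood test, genes reaching 10 counts in 2 or more profiles, Benjamini-Hochberg adjustment over 16730 genes). The 28 genes of any gate were not tested. Profiles of the same replicate number came from the same library, which pairs them, and a fit with the replicate as a block was an alternative. The differences between replicates in the members and in the 8 other types correlated at -0.0024 to 0.0826 over 5514 genes. The fit was tested on simulated data. Alternatives used DESeq2 1.42.0, other gates, filters and depths. Thinning, intervals and ratios used numpy 2.4.6 and scipy 1.17.1. A count of 0 was given an upper limit or floor of 3 UMIs.

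Named genes were the gate genes, examples from gene lists (highest level or largest change), the 15 genes with the highest ratio of mean CPM + 10 to the next type, and the 10 with the highest variance to mean ratio. The members and lists were chosen with earlier results of these data known. The members of the 2 replicates were not 1 library deposited again: the chi-square of their counts was 3.21 for each degree of freedom, over 12633 genes. Some genes are not reported here.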

Additional observations from a re-analysis of the deposited data

How the results depend on the processing

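The size of the population followed the gate. It was 0.809 and 1.37% of barcodes with the stricter gate (10 UMIs of *Igfbp6*, 6 of the 5 genes and 3 of them detected), 1.04 and 1.53% with stricter caps on other types, 2.56 and 3.58% with no demand on *Igfbp6*, and 0.576 and 1.08% with at least 4 of the 5 genes, an alternative chosen after seeing the data. With mitochondrial shares up to 10% it was 1.07 and 2.08%. Thinning every cell to 2000 UMIs left fewer counts and fewer calls, 465 higher and 362 lower against Ccl11 fibroblasts, 522 and 249 against Igf2 fibroblasts and 1692 and 1657 against endothelial cells. With no demand on *Igfbp6*, 1782 genes were higher and 1299 lower than in Igf2 fibroblasts. Shares of cells with a UMI rose with depth. At 4000 UMIs they were 24.1 and 17.1% for *Krt19*, 51.9 and 48.7% for *Ntng1* and, in replicate 2, 67.4% for *Ptch1*, and unthinned they were 36.1 and 29.5%, 61.1 and 62.1%, and 79.6 and 78.4%.

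Of 288 gene comparisons examined for 96 genes, 252 passed in edgeR's quasi-likelihood test. The direction of a call turned 9 times. *Slc47a1* against Ccl11 fibroblasts went to -1.24 (log2) without the members of the Igf2 and Ccl11 sets (an alternative also chosen after seeing the data), and *Igfbp5* to -1.41 with at least 4 of the 5 genes and -0.30 with the stricter gate. With no demand on *Igfbp6*, *Meox2* against Ccl11 fibroblasts went to -0.13 and *Crabp2* against Igf2 fibroblasts to -0.035. Against Igf2 fibroblasts *Bmp4* went to -0.21 with at least 4 of the 5 genes, -0.26 without the 2 sets and -0.11 with the stricter gate, and *Ednra* to 0.13 after thinning. The cause was not tested. Calls were lost in 20 comparisons with DESeq2, 25 after thinning, 21 with no demand on *Igfbp6*, 15 with at least 4 of the 5 genes, 17 without the 2 sets, 9 with the stricter gate and 3 to 5 under each of 5 others. No call was lost without the filter on low counts. Leaving out a replicate left 1 sample per type and gave values with no test, none of which turned a call, though 154 of 288 without replicate 1 and 165 without replicate 2 moved by more than 1 SE of the fit.

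With replicate number as a block the counts were 1165 higher and 1057 lower, 1164 and 861, and 3772 and 3816 in the same order, and 285 of the 288 comparisons kept their side of the threshold. Against Ccl11 fibroblasts *Gas1* and *Sox9* newly passed, and against Igf2 fibroblasts *Bmp4* no longer did (edgeR's quasi-likelihood adjusted p = 0.0289, 0.0353 and 0.0566 with the block).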

Other observations

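Genes that handle retinoids, picked after their values were seen, were measured beside *Stra6* in the perineurial-like cells. *Rbp4*, the plasma carrier of retinol, was at 129 and 166 CPM (counts-per-million), against 29.5 and 14.2 in Ccl11 fibroblasts and 239.9 and 326 in Igf2 fibroblasts. *Aldh1a3*, which makes retinoic acid, was at 16 and 33.5, against 13.5 and 18 in Ccl11 fibroblasts and none in Igf2 fibroblasts. Of these, *Rbp4* was higher than in Ccl11 fibroblasts (log2 fold change 2.65, SE 0.36, edgeR's quasi-likelihood adjusted p = 3.65e-05). The uptake receptor was thus near absent from Igf2 fibroblasts, while the carrier was shared with them.

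Other genes of high level were picked in the same way. *Islr*, a secreted protein of stromal cells, was at 2142 and 2432, against 775 and 888 and against 517 and 492 in the fibroblasts, although with DESeq2 the difference from Ccl11 fibroblasts did not pass. *Cav1*, the coat protein of caveolae, was at 517 and 471, against 93.5 and 39.9 and against 27.5 and 68.6 in the fibroblasts and 578 and 482 in endothelial cells. The caveolar gene was therefore at a level near that of endothelium.

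Cells that met every term of the rule but the one on *Igfbp6* numbered 209 and 293. Of these, 51.7 and 64.8% held at least 5 UMIs of *Igfbp6*, while 93 and 87 held none.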
